A study of Mus musculus with 2 samples.

Results

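Id1, Id2, Id3, Bcl6 and Rbpj encode 5 transcriptional regulators that hold back the conversion of macrophage precursors into osteoclasts, the bone-resorbing cells that RAW264.7 can form when it receives RANKL. The genes were taken by symbol from a deposited expression table, where each of the 5 has 1 row among 24034 genes, and all 5 belonged to the 10214 genes called measured here, whose mean reached 1 FPKM (fragments per kilobase of transcript, scaled to library size). The group was proposed because Id1 and Id2 were higher in the library labelled SFRS8 siRNA, so the direction of these genes in this contrast is a description and not a finding. RAW264.7 is a virus-transformed mouse monocyte/macrophage line. Poly(A) RNA was sequenced from 1 culture labelled SFRS8 siRNA and 1 labelled negative control, both grown in DMEM with 10% fetal bovine serum and both carrying a mark of 5 d in the title. The labels name no RANKL, do not say from when the 5 d were counted, and do not describe how the siRNA was delivered. Their extraction protocol speaks of an adipose type, which goes against the cell line named elsewhere in them.

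ID proteins are helix-loop-helix proteins without a DNA-binding basic region. They pair with E proteins (Tcf3, Tcf4 and Tcf12) and keep them off DNA, and their genes are classical targets of bone morphogenetic protein (BMP) signals carried by SMAD proteins. In osteoclast precursors ID proteins restrain differentiation, and RANKL lowers them. BCL6 is a zinc-finger repressor that recruits corepressors and acts on osteoclast genes such as Nfatc1, while PRDM1 (BLIMP1) represses the Bcl6 gene in turn. RBPJ is the DNA-binding factor of the Notch pathway, a repressor until the cut Notch receptor joins it, and it limits osteoclast formation driven by inflammatory cytokines.

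The coding sequences of the 3 ID genes are shown first because they define the family and decide whether reads of its members can be told apart. The most alike stretch of 120 bases within 1 exon lies in exon 1 of each gene and codes for the helix-loop-helix. It is given 5′ to 3′ on the coding strand, with capitals at the 77 bases (64.2%) identical in all 3 genes, from GENCODE vM21 (GRCm38). For Id1 it is chr2:152736518-152736637 on the plus strand, for Id2 chr12:25095783-25095902 on the minus strand, and for Id3 chr4:136144002-136144121 on the plus strand.
Id1: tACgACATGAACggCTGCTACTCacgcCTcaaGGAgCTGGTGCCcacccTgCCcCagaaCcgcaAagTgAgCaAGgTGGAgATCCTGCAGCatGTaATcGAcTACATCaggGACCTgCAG
Id2: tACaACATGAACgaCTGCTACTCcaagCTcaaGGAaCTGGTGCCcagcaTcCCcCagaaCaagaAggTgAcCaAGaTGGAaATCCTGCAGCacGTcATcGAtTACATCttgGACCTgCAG
Id3: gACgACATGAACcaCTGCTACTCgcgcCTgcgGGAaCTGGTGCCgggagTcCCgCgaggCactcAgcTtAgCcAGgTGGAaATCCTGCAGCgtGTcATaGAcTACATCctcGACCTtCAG
The coding sequences have 447 (Id1), 405 (Id2) and 360 (Id3) bases. Over the bases that could be aligned, identity was 64.3% of 375 between Id1 and Id2, 62.5% of 328 between Id1 and Id3, and 62.6% of 337 between Id2 and Id3. The longest run of identical bases in the longest transcripts was 11 between Id1 and Id2, 12 between Id1 and Id3, and 19 between Id2 and Id3. None of these transcripts matched another gene over at least 100 bases at 98% identity, so the ID genes have no near-identical copy in the annotation.

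The promoters of Id2 and Id3, 250 bases before to 50 after the start in RefSeq (GRCm38.p6), are shown because these relatives had the largest and the smallest difference of the 3 measured ID genes. Capitals mark the E-box CANNTG (the motif E proteins bind), the CCAAT box CCAAT and the half-site TGACG of the cyclic AMP response element, each searched on both strands. The Id2 window is chr12:25096043-25096342 on the minus strand and the Id3 window chr4:136143572-136143871 on the plus strand.
Id2 promoter: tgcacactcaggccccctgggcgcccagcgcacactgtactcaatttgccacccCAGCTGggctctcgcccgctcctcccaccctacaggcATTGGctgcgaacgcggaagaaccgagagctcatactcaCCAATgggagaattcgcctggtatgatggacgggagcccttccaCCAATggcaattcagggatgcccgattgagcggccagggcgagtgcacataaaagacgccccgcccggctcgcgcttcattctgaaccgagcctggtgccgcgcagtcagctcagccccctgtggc
Id3 promoter: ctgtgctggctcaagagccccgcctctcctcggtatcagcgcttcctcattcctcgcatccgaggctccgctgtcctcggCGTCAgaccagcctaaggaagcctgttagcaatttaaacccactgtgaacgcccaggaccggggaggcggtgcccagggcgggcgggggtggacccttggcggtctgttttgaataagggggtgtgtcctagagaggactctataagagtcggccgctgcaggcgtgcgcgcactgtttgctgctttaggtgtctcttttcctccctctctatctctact
The Id2 window held 3 CCAAT boxes and 1 E-box, and the Id3 window held 1 half-site TGACG. At least 3 CCAAT boxes occur in 3.37% of 32851 promoters of that length, at least 1 in 37.4%, an E-box in 72.3% and TGACG in 20.8%. The upstream Bcl6 promoter held 2 TGACG sites and 1 E-box, which overlaps a TGACG site, and the first of the Rbpj promoters held 2 copies of the RBPJ motif TGGGAA, which 25.6% of promoters contain, and 2 E-boxes. The EGR motifs GCGGGGGCG and GCGTGGGCG (3.47% of promoters) and the TATA box TATAAA (13.6%) had no match in the windows of these 4 genes, and GGCGCC (11.9%), a motif bound by BMP-activated SMAD proteins, matched once, in Id2. No promoter sequence of Id1 was used here.

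The libraries were close in depth, with 55411201 and 54847367 estimated counts for the siRNA-labelled and the control library, or about 13852800 and 13711842 read pairs. Each group is 1 library, which leaves every difference without a replicate and without a p-value. Differences are siRNA-labelled minus control values of log2(FPKM + 1). Ratios of counts per library total carry 95% exact intervals. These express counting error alone, because each group is 1 library. PCR copies of a molecule could not be recognised, so the intervals may be too narrow. Sfswap (the current name of SFRS8), the target named by the siRNA label, stood at 3.38 FPKM in the siRNA-labelled and 2.92 FPKM in the control library, so it was not lower where the label would have it lower. Directions below are therefore those of the library labelled SFRS8 siRNA. The median difference over the 10214 genes was 0.11, with quartiles of -0.05 and 0.29. The macrophage lineage, though not the line itself, was checked with 7 markers, all present in both libraries, among them Lyz2 (lysozyme) at 13998 and 15652 FPKM. Of these markers, 3 had more counts in the siRNA-labelled library and 4 had fewer, with 1284022 against 1419804 counts in sum. Itgam is 1 of the 3, at 9127 against 8179 counts. It shares 73.8% of its longest transcript with the overlapping gene Gm49368, which was lower (12460 against 15672 counts), so its direction is uncertain.

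All 5 genes were higher in the siRNA-labelled library, from 1.22-fold for Id3 to 1.77-fold for Id2 in the ratio of counts. A difference above 0 was seen for 66.9% of all 10214 genes. On the log2(FPKM + 1) scale Id2 alone of the 5 passed 1.5-fold, as did 4.91% of genes on the higher side and 2.18% on the lower side, and none passed 2-fold (1.18% higher, 0.783% lower). The 501 higher and 223 lower genes past 1.5-fold became 288 and 315 when FPKM was centred on the median gene, and 232 and 308 when differences were adjusted for GC content. The genes were chosen from this contrast, so nothing is read from these counts. The share of all genes whose counting intervals lie apart between the libraries was not counted, so nothing is read from intervals given below as apart. In bulk RNA, more cells that express a gene and more RNA per cell cannot be told apart.

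Id1 was the most abundant of the 5 genes and had the second largest difference. The gene (ENSMUSG00000042745) lies on chromosome 2 from 152736251 to 152737410 on the plus strand, with 2 annotated transcripts. It stood at 34.2 FPKM (counting interval 31.6 to 37.1) in the siRNA-labelled library (2438 counts) and at 23.2 FPKM (21.0 to 25.5) in the control library (1633 counts). The counting intervals of both libraries lie apart. The ratio of counts was 1.48 (1.3 to 1.68) and the difference 0.55, which placed Id1 at rank 625 of 10214 genes, with 6.12% of genes at least as high.

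Id2 was the least abundant of the 5 genes in both libraries and had the largest difference. The gene (ENSMUSG00000020644, chromosome 12, 25093799 to 25097140, minus strand, 3 transcripts) stood at 7.92 FPKM (7.05 to 8.88) in the siRNA-labelled and at 4.46 FPKM (3.81 to 5.20) in the control library. It rested on 1186 and 662 counts, about 297 and 166 read pairs, and the intervals lie apart. The ratio was 1.77 (1.46 to 2.16) and the difference 0.71, at rank 266, with 2.60% of genes at least as high.

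Id3 had the smallest difference of the 3 measured ID genes. The gene (ENSMUSG00000007872, chromosome 4, 136143497 to 136145392, plus strand, 3 transcripts) stood at 10.1 FPKM (8.93 to 11.3) in the siRNA-labelled and at 8.24 FPKM (7.20 to 9.39) in the control library. These intervals overlap. The ratio was 1.22 (1.02 to 1.46), from 1108 and 897 counts, and the difference of 0.26 was below the upper quartile of all genes, with 28.7% of genes at least as high. Id4, the remaining member of the family and not among the 5, had 4 counts in the siRNA-labelled library, about 1 read pair, and 0 in the control library.

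Bcl6 and Rbpj differed by similar amounts, smaller than Id1 and Id2. Bcl6 (ENSMUSG00000022508, chromosome 16, 23965052 to 23988852, minus strand, 2 transcripts) stood at 9.33 FPKM (8.75 to 9.94) against 7.12 FPKM (6.62 to 7.66) in the control library, and the intervals lie apart. Its ratio was 1.31 (1.19 to 1.44), from 3837 and 2902 counts, and its difference was 0.35. Rbpj (ENSMUSG00000039191, chromosome 5, 53466152 to 53657362, plus strand, 8 transcripts in the table) stood at 12.2 FPKM (11.7 to 12.7) against 9.37 FPKM (8.94 to 9.81), again apart. Its ratio was 1.3 (1.23 to 1.39), from 9556 and 7260 counts, and its difference was 0.35. Of all genes, 19.4% were at least as high as Bcl6 and 19.0% at least as high as Rbpj.

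The level of Rbpj is uncertain because a processed copy shares its reads. Rbpj-ps3 (chromosome 6, 46529354 to 46530794, minus strand) matches 1441 bases of the longest Rbpj transcript, 26.3% of its length, with 4 mismatches, and the match lies within the coding sequence (bases 300 to 1740 of the transcript, which codes from 220 to 1743). The table lists Rbpj-ps3 at 49.1 and 39.6 FPKM, from 4340 and 3466 counts. Its ratio was 1.24 (1.13 to 1.36), and that of both genes summed was 1.28 (1.22 to 1.35), from 13896 and 10726 counts. Both rows were higher in the same library, so the direction of Rbpj was the same with and without the copy. Bcl6 and Rbpj also overlap genes on the opposite strand, Gm37419 (11 and 4 counts) and Gm40304 (51 and 40 counts).

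**Figure D1:**
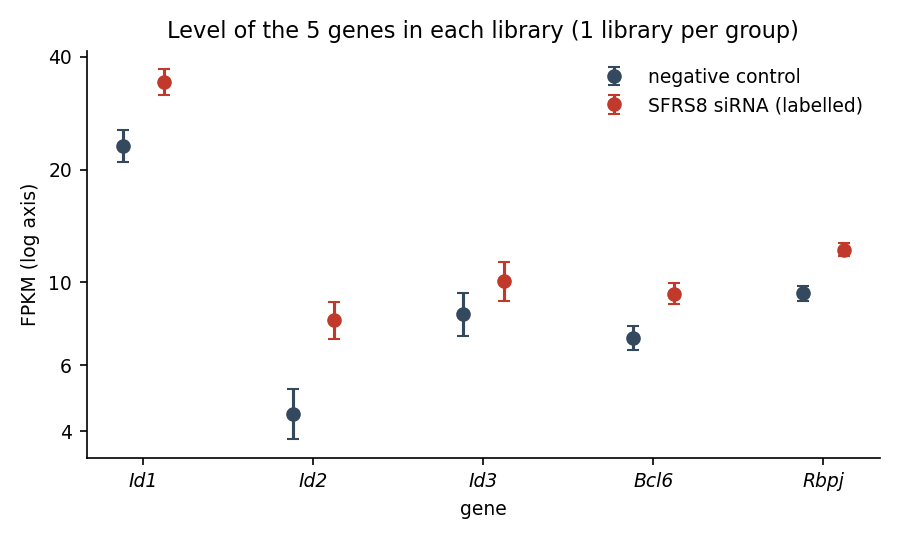
FPKM of the 5 genes on a log axis in the control library (dark points) and the siRNA-labelled library (red points), 1 library each, with bars for 95% counting intervals. Id1 sits highest, at 23.2 and 34.2 FPKM, and the bars of the libraries overlap for Id3 alone. The share of all genes with bars apart was not counted.

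**Figure D2:**
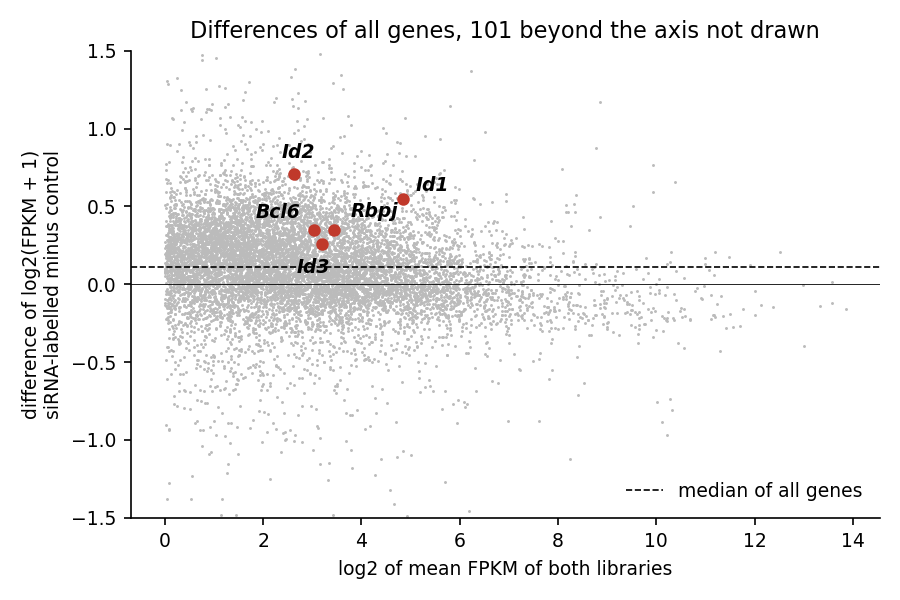
Difference of log2(FPKM + 1) against the log2 of mean FPKM for the measured genes (grey points, 101 genes beyond the axis not drawn), with the 5 genes in red and the median of all genes, 0.11, as a dashed line. All 5 lie above the line, Id2 at 0.71 and Id1 at 0.55 nearer the upper edge of the cloud than Id3, Bcl6 and Rbpj.

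Within each library the order of FPKM, a level per transcript length, was Id1, Rbpj, Id3, Bcl6 and Id2. Id1 was apart from Rbpj in both libraries by counting interval. Id3 and Bcl6 overlapped in both, Rbpj and Id3 overlapped in the control library, and Bcl6 and Id2 overlapped in the siRNA-labelled library. When counts were divided by the length of the longest transcript instead, Bcl6 and Id3 changed places in both libraries and the other 3 genes kept theirs. At a mean of 28.7 FPKM, Id1 was at or above 83.3% of the measured genes, and Id2, at 6.19 FPKM, at or above 50.1%.

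The summed FPKM of the ID genes was larger relative to that of their E-protein partners in the siRNA-labelled library. Id1 and Id2 make up most of the ID sum, and the group was chosen because they were higher there. The larger ratio therefore follows from the choice and is a description. The ID genes summed to 52.3 FPKM there and to 35.9 FPKM in the control library. Tcf3, Tcf4 and Tcf12 together stood at 21.9 and 20.4 FPKM, which gives a ratio of 2.39 ID to E-protein transcripts per length against 1.75. Id1 made up 65.5% and 64.6% of the ID sum, while Id2 made up 15.2% and 12.5% and Id3 19.3% and 23.0%.

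Among the E proteins themselves, Tcf3 (E2A) was the most abundant, at 16.4 FPKM in the siRNA-labelled and 14.9 FPKM in the control library, with a ratio of counts of 1.1 (1.0 to 1.2). Tcf12 (HEB) stood at 4.45 and 4.71 FPKM (0.95, 0.87 to 1.03). Tcf4, whose mean was below the minimum level, stood at 1.08 and 0.85 FPKM (1.27, 1.10 to 1.46). Usp1, a deubiquitinase known in human osteosarcoma cells to stabilise ID proteins, was higher by more than any ID gene, at 7.55 against 3.99 FPKM, a ratio of 1.89 (1.60 to 2.23) and a difference of 0.78. After adjustment for GC content its difference was 0.50, below the 0.54 of Id1. Of the 8 genes listed for the ID family and its partners, 6 were measured and 5 had differences above 0, beside 66.9% of all genes. Usp1 and Id2 passed 1.5-fold on the higher side, beside 4.91% of all genes. The median of the 6 listed genes was 0.40 beside 0.11 over all genes, and 3 of the 6 are the ID genes themselves.

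Genes of the BMP and transforming growth factor beta (TGF-beta) route, which acts upstream of ID genes, had a median of 0.11, equal to that of all genes at this precision. That median was -0.11 when the minimum was raised to 5 FPKM. Of 28 listed genes 16 were measured and 10 were above 0, beside 66.9% of all genes. None passed 1.5-fold on the log2(FPKM + 1) scale (4.91% of all genes on the higher and 2.18% on the lower side), although the ratio of counts was 1.69 for Smurf2 and 1.55 for Smad1. The highest was Smurf2 (a ubiquitin ligase of the route), at 1.82 against 1.07 FPKM. Next were Bmpr1a (a type I BMP receptor), at 3.77 against 2.54 FPKM, and Smad1 (a BMP-activated SMAD), at 1.65 against 1.05 FPKM. Adjusted for GC content, their differences went from 0.44 to 0.24 (Smurf2), 0.43 to 0.11 (Bmpr1a) and 0.37 to 0.31 (Smad1). The most abundant were lower, Tgfb1 (the ligand TGF-beta 1) at 50.4 against 58.1 FPKM with a ratio of 0.866 (0.83 to 0.905), and Tgfbr2 (its type II receptor) at 14.8 against 17.5 FPKM with a ratio of 0.84 (0.79 to 0.90). Smad6, a feedback inhibitor of the BMP branch and like the ID genes a BMP target, stood at 1.39 and 1.18 FPKM (1.17, 0.815 to 1.69). Tgfbr1, the type I TGF-beta receptor, was below the minimum level with 301 and 115 counts, a ratio of 2.59 (1.67 to 4.13). Smad7 was at 30 and 43 counts. The ligand genes Bmp2, Bmp4, Bmp6 and Bmp7 had at most 12 counts in either library.

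Of 7 signal-dependent factors known to act on ID genes in some cell types, Egr1 alone passed 1.5-fold, beside 4.91% of all genes on the higher side. This zinc-finger early response factor stood at 4.59 against 1.46 FPKM, a ratio of 3.13 (2.49 to 3.96). The next differences were those of Myc, at 2.86 against 2.45 FPKM, and Creb1, at 1.44 against 1.24 FPKM, both with intervals that include 1. The most abundant, Atf3 (a stress-induced repressor that acts on Id1 in human epithelial cells) at 52.0 and 49.6 FPKM and Srf at 16.2 and 15.7 FPKM, were near equal. The median of the 7 was 0.06.

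Of 12 corepressors and relatives of Bcl6 8 were measured, 7 were above 0, none passed 1.5-fold, and the median was 0.11. Beside these, 66.9% of all genes were above 0, and 4.91% passed 1.5-fold on the higher and 2.18% on the lower side. Sin3a, a scaffold of histone deacetylase complexes, had the largest difference of the list, 0.45, at 10.5 against 7.42 FPKM (1.42, 1.28 to 1.57), above the 0.35 of Bcl6 itself. The corepressors Ncor1 (4.59 against 3.68 FPKM) and Bcor (1.40 against 1.12 FPKM), which bind BCL6 directly, followed. With adjustment for GC content, differences went from 0.45 to 0.30 (Sin3a), 0.25 to 0.10 (Ncor1) and 0.18 to 0.15 (Bcor). Ctbp1 stood at 14.2 and 13.0 FPKM and Hdac5 at 13.1 and 13.7 FPKM. Prdm1, the repressor of Bcl6 in osteoclast precursors, had 0 counts in both libraries, and the related Bcl6b had 117 and 119 counts.

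The Notch pathway around Rbpj had a median of 0.03, beside 0.11 over all genes, and of -0.07 at a minimum of 5 FPKM or after adjustment for GC content. Of 28 genes 14 were measured and 8 were above 0, beside 66.9% of all genes. None passed 1.5-fold on the log2(FPKM + 1) scale, beside 4.91% of all genes on the higher and 2.18% on the lower side. Adam10, the protease that makes the first ligand-induced cut of Notch receptors, stood at 9.79 against 6.41 FPKM (1.53, 1.36 to 1.72). Kdm5a, a histone demethylase that joins RBPJ in repression, stood at 2.13 against 1.46 FPKM. Psen2 (a catalytic subunit of gamma-secretase) was lower, at 2.81 against 3.74 FPKM (0.75, 0.62 to 0.91). When adjusted for GC content, the difference went from 0.54 to 0.23 for Adam10 and from 0.34 to 0.05 for Kdm5a. That of Psen2 stayed at -0.32. The gamma-secretase subunits Psenen, at 44.2 and 47.6 FPKM, and Aph1a, at 38.9 and 41.0 FPKM, were the most abundant, but Psenen and Aph1a share part of their sequence with processed copies. The main receptor Notch2 was lower, at 6.13 against 7.08 FPKM (0.87, 0.79 to 0.94). Of the usual Notch target genes, Hes1 had 12 and 8 counts, Hey1 16 and 12, Nrarp 16 and 4 and Heyl 4 and 0, so no direction can be read at this depth.

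Of 7 other repressors of osteoclast differentiation 5 were measured, 4 were above 0, none passed 1.5-fold, and the median was 0.17. Over all measured genes 66.9% were above 0, and 4.91% passed 1.5-fold on the higher and 2.18% on the lower side. Tnfaip3 (A20, an inhibitor of NF-kB signalling) stood at 1.86 against 0.98 FPKM (1.89, 1.49 to 2.41), a larger ratio than that of any of the 5 genes but a difference of 0.53 on the log2(FPKM + 1) scale. Cyld, a deubiquitinase acting on the same route, stood at 1.83 against 1.5 FPKM. Nfkb2, whose p100 product holds back NF-kB, stood at 20.8 against 18.4 FPKM. Adjustment for GC content took their differences from 0.18 to -0.11 (Cyld) and from 0.17 to 0.20 (Nfkb2). It took that of Tnfaip3 to 0.34. Irf8, the interferon regulatory factor that blocks NFATc1, was lower, at 12.2 against 13.6 FPKM (0.90, 0.83 to 0.97).

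Osteoclast genes had a median of 0.03 over 13 of 20 genes measured, or -0.07 after adjustment for GC content. Of the 13 genes, 8 were above 0, beside 66.9% of all genes. Fos, a factor RANKL induces, was the one of them past 1.5-fold, at 30.4 against 15.0 FPKM (2.02, 1.82 to 2.24). Of all genes, 4.91% passed that limit on the higher and 2.18% on the lower side. Mmp9, a matrix protease, was lower, at 7.37 against 10.2 FPKM (0.72, 0.63 to 0.82). Ostm1, a subunit of the lysosomal chloride transporter, was higher, at 2.25 against 1.5 FPKM. Its difference went from 0.38 to 0.16 on adjustment for GC content. Those of Fos (0.97 to 0.92) and Mmp9 (-0.42 both ways) changed little. Spi1 (PU.1), at 74.0 and 73.2 FPKM, and Car2 (carbonic anhydrase 2), at 72.7 and 69.7 FPKM, were the most abundant. Nfatc1, the master factor of osteoclasts and a BCL6 target, stood at 7.64 and 7.33 FPKM (1.04, 0.95 to 1.15). Effector genes of osteoclasts that macrophages also express were well above the minimum, such as Tcirg1 (a proton pump subunit) at 50.8 and 54.8 FPKM, Acp5 (TRAP) at 27.5 and 29.4 FPKM and Clcn7 (a chloride transporter) at 11.7 and 12.4 FPKM. Atp6v0d2, a proton pump subunit with a part in fusion, stood at 2.06 and 1.99 FPKM. Other osteoclast genes were near 0 in both libraries, with Ctsk (cathepsin K) at 17 and 45 counts, Oscar at 8 and 0, Calcr (the calcitonin receptor) at 4 and 0, Ocstamp at 8 and 4, and Dcstamp, a fusion protein and BCL6 target, at 97 and 31 (3.10, 1.34 to 8.09).

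**Figure D3:**
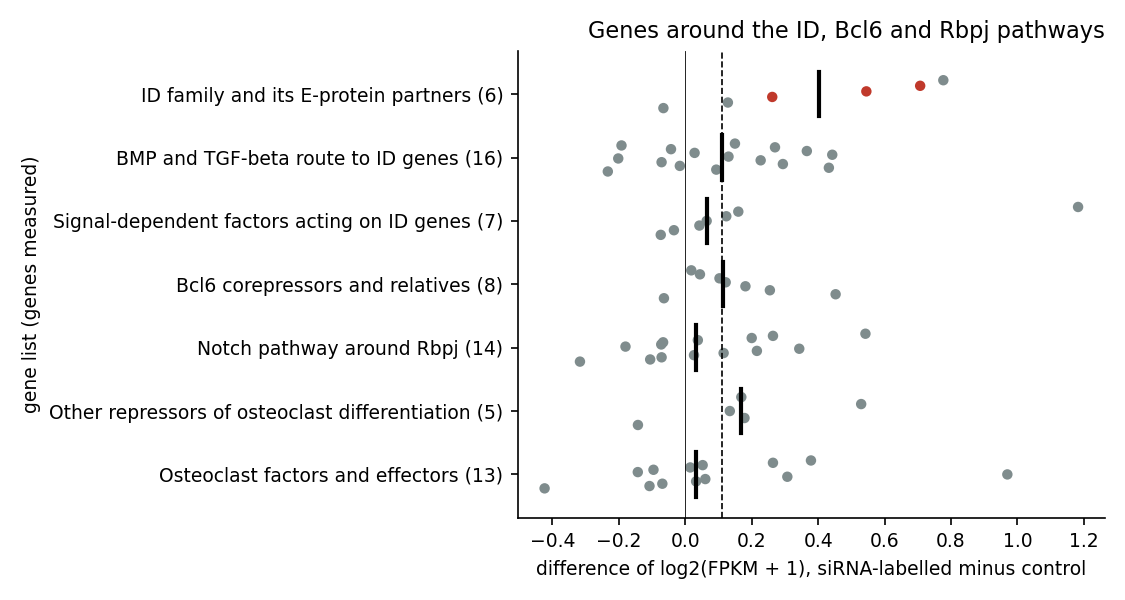
Difference of log2(FPKM + 1) of each measured gene in 7 gene lists, with Id1, Id2 and Id3 in red, other genes in grey, a black bar at the median of each list and a dashed line at 0.11, the median of all genes. The list of the ID family has its median at 0.40, and the other 6 lists have medians between 0.03 and 0.17. The ID list holds Id1 and Id2, whose higher values led to the choice of the group, so its median follows in part from that choice.

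The genes most like Id1 and Id2 in level were found by the distance over both libraries on the log2(FPKM + 1) scale, among 8857 genes with ordinary symbols. With 2 libraries this likeness rests on 2 values per gene. For Id1 they were Pbk (34.2 and 23.3 FPKM in the siRNA-labelled and control library), Eid1 (34.3 and 22.9 FPKM) and Glrx5 (33.6 and 23.1 FPKM). For Id2 they were Ube2e3 (7.90 and 4.27 FPKM), Sacm1l (8.05 and 4.67 FPKM) and Cse1l (7.74 and 4.67 FPKM).

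The difference between the libraries followed the GC content of the transcript across all genes, and the 5 genes stood differently against that trend. Spearman's rho was -0.46 across genes, which are not independent replicates, and of 10 bins of genes by GC content the lowest had a median of 0.34 and the highest -0.03. Id1 (54.7% GC) and Id3 (55.6% GC) fell in the 8th bin, whose median was -0.0042, and their differences adjusted for the trend were 0.54 and 0.27. Id2 (45.1% GC) fell in the 3rd bin, with a median of 0.24, and its adjusted difference was 0.46, below that of Id1. Bcl6 (50.6% GC) had an adjusted difference of 0.27 beside a median of 0.05 in its bin. Rbpj (43.7% GC) was in a bin with a median of 0.29, and its adjusted difference was 0.065, so its value was close to that of genes of like GC content. Scaling FPKM so that the median log2 ratio over genes, 0.13, became 0 put genes with smaller log2 ratios than the median gene below 0 and left Id1 at 0.42, Id2 at 0.59, Id3 at 0.14, Bcl6 at 0.23 and Rbpj at 0.23. With that scaling the medians of the Notch, osteoclast, Bcl6 and signal-dependent lists were below 0, at -0.07, -0.07, -0.0077 and -0.07.

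**Figure D4:**
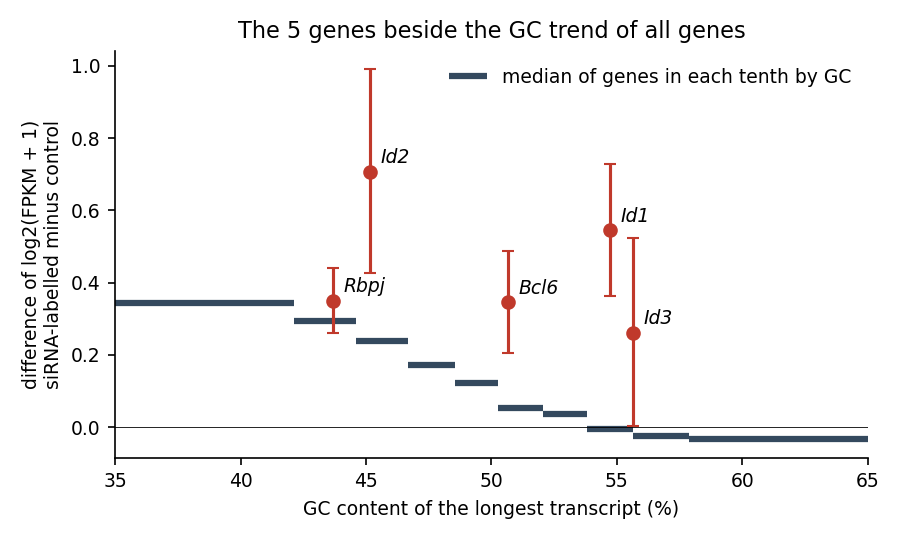
Difference of log2(FPKM + 1) of the 5 genes (red, with bars for the 95% counting interval of the ratio of counts, centred on the difference) against the GC content of the longest transcript, with dark bars for the median of all genes in each of 10 bins by GC content (the outermost bins run past the axis). Rbpj, at 0.35, lies beside the bar of its bin at 0.29, while Id1, at 0.55, lies above a bar near 0.

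Markers of some other cell types were higher in the same library as the 5 genes. All 10 heart muscle markers were higher, with 12720 against 403 counts in sum, and Myl2, Myl3, Actc1 and Nppa were at 0 in the control library. All 5 red blood cell markers in the table were higher (423 against 6 counts), as were 4 of 6 fibroblast markers (323 against 16). All 8 markers of vascular endothelium, a cell type known for high Id1 and Id3, had more counts. They summed to 850 against 731 counts, and to 142 against 51 without Egfl7. Against 0 in the control library, Kdr had 29 counts, Cdh5 19, and Tek and Emcn 6 each. The interval of the ratio lay above 1 for Kdr alone (lower limit 1.49). It included 1 for the other endothelial markers, so no direction is read for those. In the siRNA-labelled library the highest of the 7 endothelial markers other than Egfl7, Pecam1, reached 0.14 FPKM. The highest heart muscle marker, Mb, reached 21.9 FPKM there. B cell markers had 28 and 19 counts. The part of these cell types in the differences of the 5 genes was not tested.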

How the data were processed

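Poly(A) RNA of 2 RAW264.7 cultures was sequenced as paired-end reads, per the labels' protocols. HISAT2 2.0 and StringTie 1.3.0 are listed, per the submitters' processing notes. Build, annotation and strandedness were not given in the sources used here. Each of the 24034 gene IDs was found in GENCODE vM21 (GRCm38), 89.9% with the same coordinates, so it served for lengths, GC content and sequences.

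FPKM values, per the file headers, were normalised by the authors for length and library size. The deposited estimated counts are whole numbers that pile up on multiples of 4 (45.1% and 42.7% of counts from 1 to 20), so 1 read pair was taken as 4 counts. Their sums set the precision. Intervals are 95% exact Clopper-Pearson limits of the ratio, conditional on the sum of both libraries, or exact Poisson limits for a single level, both on counts divided by 4. They cover counting error only.

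Groups came from the treatment labels, and 0 columns were left unmatched. No test between conditions was possible with 1 library each. Genes needed a mean of 1 FPKM and the pseudocount was 1, which understates the differences of low genes. The limits of 1.5-fold and 2-fold are rules of size. The members and lists were chosen with earlier results of these data known. From each list the rule named the 3 measured genes that differed most and the 2 of highest level, and for Id1 and Id2 the 3 nearest genes. Other genes, such as Nfatc1, Notch2, Tcf12, Smad6, Prdm1 and Dcstamp, were named after their values were seen. Alternatives were other pseudocounts, minimum levels and scalings, a lowess adjustment for GC content with a span of 0.3, counts in place of FPKM, and sums with genes that share sequence (blastn 2.17.0, 98% identity over 100 bases). The ID coding sequences were aligned with MAFFT, in place of the protein comparison first planned. The differences and intervals were tested on simulated data. These held only the counting error that the intervals assume, so the test cannot show how well the intervals fit the deposited counts. Software was Python 3.11.15 with scipy 1.17.1, numpy 2.4.6, statsmodels 0.14.6, matplotlib 3.10.9 and pandas 2.3.3.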

Additional observations from a re-analysis of the deposited data

How the results depend on the processing

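The 5 genes stayed above 0 under every alternative run, Id1 between 0.42 and 0.56, Id2 0.46 and 0.83, Id3 0.14 and 0.29, Bcl6 0.23 and 0.39, and Rbpj 0.065 and 0.38. Rbpj moved by more than its counting interval allows around its difference, to 0.23 when centred on the median gene and to 0.065 when adjusted for GC content, which removes the trend by construction. The median of the BMP and TGF-beta list reversed to -0.11 at a minimum of 5 FPKM, and that of the Notch list was -0.07 there and after GC adjustment, as was that of the osteoclast list after GC adjustment; the cause was not tested. The 501 genes past 1.5-fold on the higher side became 1055 with a pseudocount of 0.1, 1147 with none, 1132 by counts per library total, 288 centred, 232 adjusted for GC content and 223 at 5 FPKM. The 223 on the lower side became 335 by counts and 121 at 5 FPKM, and stood at 315 centred and 308 adjusted for GC content, so both of these turned the balance of directions. Past 2-fold, the 121 higher genes became 232 (pseudocount 0.1), 255 (none), 250 (counts) and 47 (5 FPKM), and the 80 lower ones 134, 142, 139 and 50. Summing Rbpj with its copy, or members with genes on the opposite strand (chosen after seeing the data), changed no direction. Taking counts as they stand, not divided by 4, narrowed the interval of Id2 to 1.61 to 1.95. No paired analysis was possible because the labels give no replicate numbers and each group has 1 library, so no library could be left out either.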

Other observations

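Pathway lists of the deposited KEGG annotation were added after the data were examined. Id1, Id2, Id3 and Id4 share the term TGF-beta signaling pathway there, Rbpj carries the Notch term, and Bcl6 the FoxO term. Over all measured genes the median was 0.11 and 66.9% were above 0, with 4.91% past 1.5-fold on the higher and 2.18% on the lower side. Of 79 TGF-beta genes, 40 were measured and 30 were above 0, and Id2 was the one past 1.5-fold. Their median was 0.25, or 0.10 after adjustment for GC content. Of 47 Notch genes 32 were measured and 22 were above 0, with a median of 0.11, equal to that of all genes at this precision. Past 1.5-fold there were Numb (an inhibitor of Notch), at 9.37 against 5.47 FPKM, and Cir1 (a corepressor that binds RBPJ), at 3.33 against 1.67 FPKM. Of 115 genes of the osteoclast differentiation term 83 were measured and 61 were above 0, with a median of 0.13, or 0.03 after the adjustment. In it 6 genes passed 1.5-fold on the higher side and none on the lower side, beside 4.91% and 2.18% of all measured genes, and 66.9% of these were above 0. Among the 6 were Fos, Jun (56.9 against 36.0 FPKM), Rac1 (43.7 against 24.2 FPKM) and Grb2 (52.3 against 26.5 FPKM). The others were Ppp3r1 (a calcineurin subunit, 13.6 against 8.15 FPKM) and Fhl2, a gene abundant in heart, listed at 2.27 FPKM against 0. Fhl2 reached the minimum mean of 1 FPKM through the siRNA-labelled library alone, so its direction was fixed by that minimum.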
